A study of Mus musculus with 4 samples.

Results

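Upper hair follicle cells were taken from 2 single-cell libraries of adult mouse epidermis, made 1 day after ablation of DNp63, the shorter isoform of the transcription factor p63. The cells were chosen by their own counts: at least 1500 gene UMIs, at most 15% mitochondrial UMIs, Krt79 at 2 or more UMIs and at 5 or more per 10000, no Ptprc UMI, and Scd1 under 20 per 10000. A UMI marks 1 captured RNA molecule. The rule found 3784 control and 5661 ablated cells, 9445 of the 109216 barcodes of the series. The mice of the control library were DNp63fl/fl, so the floxed alleles are shared by both groups, and those of the ablated library were DNp63fl/fl;K14-CreT2, in which a tamoxifen-dependent Cre is driven by the keratin 14 promoter of basal keratinocytes. Both groups were gavaged with 200 mg/kg tamoxifen on each of 5 days. The labels give an age of 2 to 17 months and equal numbers of both sexes over the study, and say neither how many mice went into a library nor which digestion in 0.25% trypsin (cold overnight or warm) it had. The 1-week libraries used another kit and were not compared.

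The upper hair follicle, comprising the junctional zone, isthmus and infundibulum, joins the hair canal to the epidermis and to the sebaceous gland. Krt79 is a keratin of this region and of the cells that line the opening of the follicle. Cst6 encodes cystatin M/E, an inhibitor of legumain and cathepsins that act in cornification, and Defb6 encodes a beta-defensin, a small antimicrobial peptide. p63 is the factor that maintains basal keratinocytes of stratified epithelia, where it controls adhesion, keratin and differentiation genes.

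On mouse build GRCm38 in GENCODE M21, Krt79 lies on chromosome 15 at 101929332 to 101940324 (minus strand), Cst6 on chromosome 19 at 5344705 to 5349574 (minus) and Defb6 on chromosome 8 at 19225478 to 19228209 (plus). Trp63, the gene of p63, lies on chromosome 16 at 25683763 to 25892102 (plus). All 4 are protein-coding. RefSeq start-site windows on GRCm38.p6 matched 2 of the 3 marker genes. The 250 bases before each start are shown because Krt79 chose the cells and Defb6 marks them, and because Gata6, a zinc-finger factor of the upper follicle, is on the marker list. Capitals mark the letters AGATAA, which factors of this family can bind, searched on both strands.
Krt79, chr15:101940325-101940574, minus strand: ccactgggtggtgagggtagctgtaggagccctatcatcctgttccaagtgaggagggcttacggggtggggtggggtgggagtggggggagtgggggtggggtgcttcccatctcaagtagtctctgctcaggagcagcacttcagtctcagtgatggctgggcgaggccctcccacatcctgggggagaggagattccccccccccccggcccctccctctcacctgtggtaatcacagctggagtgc
Defb6, chr8:19225228-19225477, plus strand: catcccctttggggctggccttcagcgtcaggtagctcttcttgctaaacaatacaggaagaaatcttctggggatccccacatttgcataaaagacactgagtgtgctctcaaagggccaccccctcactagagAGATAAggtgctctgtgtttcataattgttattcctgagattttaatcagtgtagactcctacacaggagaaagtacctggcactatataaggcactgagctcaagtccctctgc
The Defb6 window held 1 match, 115 bases before the start, and the Krt79 window held none. Of 32851 such windows, 9.99% held a match. A match is a description of the letters only. Other forms of a binding site were not searched, so a window with no match can still hold one.

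Each group was 1 library, so no test was possible and no difference below has a replicate check. Levels are given as CPM, the UMIs of a gene per 1000000 UMIs summed over the cells. Differences are log2 ratios, ablated over control, with exact 95% intervals that cover counting error only. The cells held 24405748 (control) and 27126794 UMIs (ablated), with medians of 4726 and 3496 UMIs per cell. Median mitochondrial shares were 4.12% and 4.23%. The lowest UMI count listed was 500 for the control and 1368 for the ablated library, and 299 barcodes occurred in both, 8 of them among the chosen cells. The libraries carried 3 antibody tags with signal each. Grouping the cells by a dominant tag gave sets of 1053, 695 and 741 control and 759, 633 and 486 ablated cells. These sets are used below to show the spread among cells with 1 dominant tag. They held 2489 of the 3784 control and 1878 of the 5661 ablated cells, with medians of 4708 and 4750.5 UMIs. The ablated sets were thus deeper than all ablated cells. Levels in the sets can lie to 1 side of the level of all cells, as for ablated Krt8 and Cst6. What the tags mark is not given, so tag sets are not replicates. Ddx3y, a Y-linked gene, lay between 79.2 and 95.5 CPM in all 6 tag sets, and Xist, made in cells with more than 1 X chromosome, had no UMI in any, so neither library showed the mixture of sexes that the labels give for the study.

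Keratinocyte RNA was also found in barcodes of immune cells. The 508 control and 640 ablated barcodes rich in Langerhans cell genes (Cd207, Cd74, H2-Aa and H2-Ab1 together at 200 or more UMIs per 10000, a set defined after seeing the data) held Trp63 at 209.6 and 52.9 CPM, Klk7 at 58.8 and 1059 and Krt8 at 1.46 and 268. Such barcodes can hold free RNA, attached cells or mixed droplets. Barcodes with 2 or more Ptprc UMIs (348 control and 185 ablated ones) held keratinocyte RNA as well. Levels in these sets are given beside many of the results below, and the part of such RNA in the results was not tested.

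Of the upper follicle markers given here, all but Plet1 stood higher in the chosen than in the other cells of both libraries. Lgr6, Atp6v1c2 and Teddm3, also listed, are not given here. Cst6 stood at 14733 and 9599 CPM in control and ablated upper follicle cells, against 692 and 694 in the other cells of the same libraries that lacked Ptprc. Defb6 stood at 3638 and 2342, against 200.3 and 297 in the other cells. Krt17, a keratin of the follicle, had 5839.9 and 4594 against 925 and 1642. The transcription factor Gata6 had 64.9 and 42.3 against 13.2 and 12.1, and Lrig1, a marker of the junctional zone stem cells, 28.8 and 18.98 against 11.7 and 10.7. Plet1, also listed for this region, did not separate the cells in the ablated library, at 2057 and 2788 against 1444 and 2930.5. After thinning to 1500 UMIs a cell, Cst6 was detected in 80.05% of control and 76.9% of ablated upper follicle cells (90.04% and 88.1% unthinned), against 32.6% and 36.7% of the other cells (60.1% and 59.3% unthinned) and 29.02% and 37.8% of barcodes with 2 or more Ptprc UMIs. Lrig1, thinned in the same way, was detected in 4.39% of control and 2.93% of ablated upper follicle cells. The barcodes with 2 or more Ptprc UMIs held it in 3.16% (interval 1.59 to 5.59) and 2.70% (0.88 to 6.19). These intervals cover the shares in upper follicle cells, so Lrig1 did not set the cells apart from that background. Since Krt79 chose the cells, all these values describe the choice. The plot of marker genes shows the levels side by side.

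**Figure D1:**
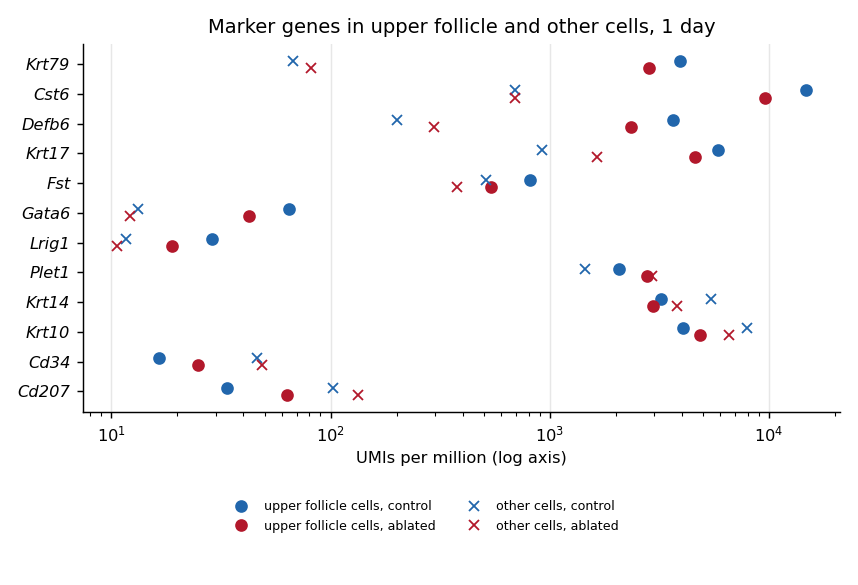
Levels of marker genes in CPM on a log axis, for upper follicle cells (circles) and all other cells lacking Ptprc (crosses) of the control (blue) and ablated (red) 1-day libraries. Krt79, Cst6, Defb6, Krt17 and Gata6 were higher in upper follicle than in other cells in both libraries, and each was lower in the ablated than in the control upper follicle cells.

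Markers of other cells were low. The 4 Langerhans cell genes summed to 272 and 415 CPM in control and ablated upper follicle cells, and the 6 T cell genes to 15.4 and 14.7. The 6 fibroblast genes summed to 9.83 and 8.52, the 4 endothelial genes to 0.656 and 1.59, and the 4 smooth muscle and pericyte genes to 0.451 and 0.664. The 4 Merkel cell genes (Atoh1, Sox2, Isl1 and Krt20) summed to 0.0819 and 0.00. The 6 melanocyte genes summed to 2.87 and 8.33. Within the ablated library the melanosome gene Pmel read 0.00, 0.395 and 14.3 CPM in the 3 tag sets, so that its signal came from 1 of them. In cells at 40 or more Krt79 UMIs per 10000, the 4 Langerhans cell genes summed to 111 and 280 CPM, each of them 2-fold higher, and the fibroblast genes to 19.3 and 3.36, with all 4 measured ones 2-fold lower. The melanocyte genes summed to 1.85 and 14.8 in these cells, with all 3 measured ones 2-fold higher. These counts had no limit on UMIs, and the share of all genes past 2-fold in that way was not counted. The part of RNA from such other cell types in the results was not tested.

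Upper follicle cells made up 13.6% (exact binomial interval 13.2 to 14.1) of the 27727 control barcodes within the UMI and mitochondrial limits and 18.4% (18.02 to 18.9) of the 30687 ablated ones. Of the barcodes with 2 or more Ptprc UMIs, 8.33% (interval 5.65 to 11.7) of the control and 11.4% (7.17 to 16.8) of the ablated ones met the same Krt79 limits, so this background was also higher in the ablated library, within wide intervals. The surplus lay at low Krt79 levels. Cells at 40 or more Krt79 UMIs per 10000 were 5.77% of control and 4.60% of ablated barcodes, so the direction turned at this limit, which was chosen after seeing the data. The median Krt79 level was 31.3 per 10000 in control and 17.97 in ablated upper follicle cells. Cells at 80 or more were 20.1% of the control and 8.73% of the ablated upper follicle cells, and cells at 10 to 20 were 18.5% and 29.1%. The 2 sets of cells thus differed in their levels of Krt79, the gene that chose them. A different mix of cells and a lower Krt79 level in the same cells cannot be told apart here. Because the levels differed, results are also given at 40 or more Krt79 UMIs per 10000, where 1599 control and 1412 ablated cells remained. Of these, 760 and 494 were at 80 or more, so this limit did not match the libraries in Krt79.

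Cst6 was higher just inside than just outside the Krt79 limit, by more in the control than in the ablated library. In the control library, Cst6 stood at 3004 CPM in 356 cells at 5 to 7 Krt79 UMIs per 10000 and at 1876 in 465 cells at 3 to 5. In the ablated library it stood at 2445 in 635 cells and 2263 in 490 cells. Defb6 stood at 1387 inside and 870 outside in the control and at 1101 and 905 in the ablated library. All these cells held 2 or more Krt79 UMIs, and they differed in depth. Median depths were 5585 UMIs inside and 6333 outside in the control, and 3807 and 6270 in the ablated library. The part of depth in the difference between the libraries was not tested. Along the whole range Cst6 climbed from 3373 at 5 to 10 Krt79 UMIs per 10000 to 34544 at 80 or more in the control, and from 3180.5 to 28634 in the ablated library. Defb6 climbed from 1486 to 6570.1 and from 1203 to 5226.

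Trp63 itself was lower in the ablated cells. It stood at 325 CPM (7928 UMIs) in the control and 121 (3295 UMIs) in the ablated upper follicle cells, a log2 ratio of -1.42 (interval -1.48 to -1.36). The tag sets read 311, 319 and 327 in control and 107, 143 and 145 in ablated sets and did not overlap. Tag sets apart were common: of the 11428 genes with at least 50 UMIs, 12.3% had all 3 ablated sets above and 13% all 3 below the control sets, at any size of difference. After each cell was thinned to 1500 UMIs, 35.2% of control and 15.2% of ablated upper follicle cells held a Trp63 UMI (68.3% and 33.4% before thinning), against 15.4% and 6.72% of the Langerhans-rich barcodes, whose median depths were 2868 and 2429 UMIs, and 24.7% and 9.19% of the barcodes with 2 or more Ptprc UMIs. The log2 ratio was -1.88 in all other cells, -1.08 in bulge cells chosen by Cd34 and Postn, and -0.76 in sebaceous cells chosen by Scd1. Control Trp63 fell along Krt79, from 387 at 5 to 10 to 203 at 80 or more per 10000, while ablated Trp63 went from 126 to 100.2. The log2 ratio went with it, from -1.62 to -1.02. The counts are per gene and reads of this kit lie near the 3′ end, so they need not fall in the deleted part.

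Across the 11428 genes with at least 50 UMIs over both libraries, 435 were at least 2-fold higher in the ablated cells (3.81%) and 158 at least 2-fold lower (1.38%). The median log2 ratio over all of them was -0.020. In the other cells 4.9% of 14077 genes were 2-fold higher and 2.82% 2-fold lower. Of the 435 genes, 316 also had all 3 ablated tag sets above all 3 control tag sets (2.77% of the genes), and of the 158, 127 had all below (1.11%), where 1402 and 1491 of the 11428 genes had tag sets apart at any size. Of the 435 genes, 320 had a higher level in ablated upper follicle cells than in the Langerhans-rich barcodes of that library, 197 of them by 2-fold or more, and of the 158 lower genes 110 stood higher in control upper follicle cells than in the Langerhans-rich control barcodes. Against the barcodes with 2 or more Ptprc UMIs, the numbers were 237 of the 435 and 82 of the 158. Only 49 and 25 genes had counting intervals apart from and above those barcodes. At 40 or more Krt79 UMIs per 10000, 278 of the 435 and 107 of the 158 were past 2-fold in the same direction, with no limit on their UMIs. Among the 8899 genes with at least 50 UMIs in these cells, 201 were 2-fold higher and 94 lower. The share of all genes past 2-fold with no such limit was not counted. The plot of gene lists shows the log2 ratios behind the following paragraphs.

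**Figure D2:**
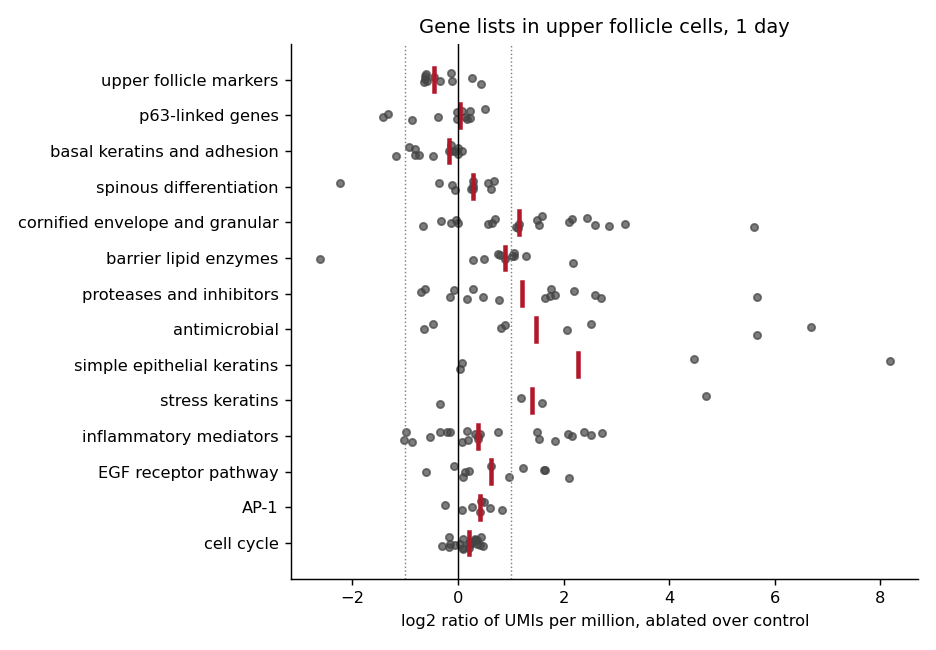
Log2 ratios of CPM, ablated over control, in upper follicle cells, with 1 point per gene of at least 50 UMIs and a red bar at each list's median. Dotted lines mark 2-fold. The cornified envelope, protease, antimicrobial, simple epithelial keratin and stress keratin lists have medians beyond the upper one, while the upper follicle markers centre at -0.46.

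None of the 11 upper follicle markers, a list that holds the rule's own Krt79, was 2-fold higher or lower. The shares over all measured genes were 3.81% higher and 1.38% lower, so none in a list of 11 is near those shares. The log2 ratios of the 11 markers ran from -0.64 to 0.44 with a median of -0.46, against 0.23 in the other cells. Plet1 was at the upper end, and its tag sets overlapped. Cst6 had a log2 ratio of -0.62 (interval -0.63 to -0.61). The tag sets of this gene read 15771, 16276 and 18919 in control and 9914, 11724 and 13661 in ablated sets, with no overlap. Defb6 had -0.64 (interval -0.65 to -0.62), with tag sets at 3378, 4396 and 4418 and 2708, 2796 and 2958, again apart. Fst, which encodes follistatin, an activin antagonist, had -0.59, and its tag sets did not overlap. Gata6 had -0.62, but its tag sets overlapped. In the Langerhans-rich barcodes Cst6 stood at 475 and 1288 and Defb6 at 173 and 282. Within strata of Krt79 the Cst6 difference was smaller. Since Cst6 climbed with Krt79, a split by Krt79 can itself lessen the Cst6 ratio. The smaller values therefore do not show whether Cst6 was lower in like cells, which was not tested. The Cst6 log2 ratio ran from -0.069 at 10 to 20 to -0.41 at 20 to 40 Krt79 UMIs per 10000 and was -0.27 at 80 or more. That of Defb6 lay between -0.30 and -0.52 in every stratum. Krt17 changed sign, from 0.43 at 5 to 10 to -0.20 at 80 or more.

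**Figure D3:**
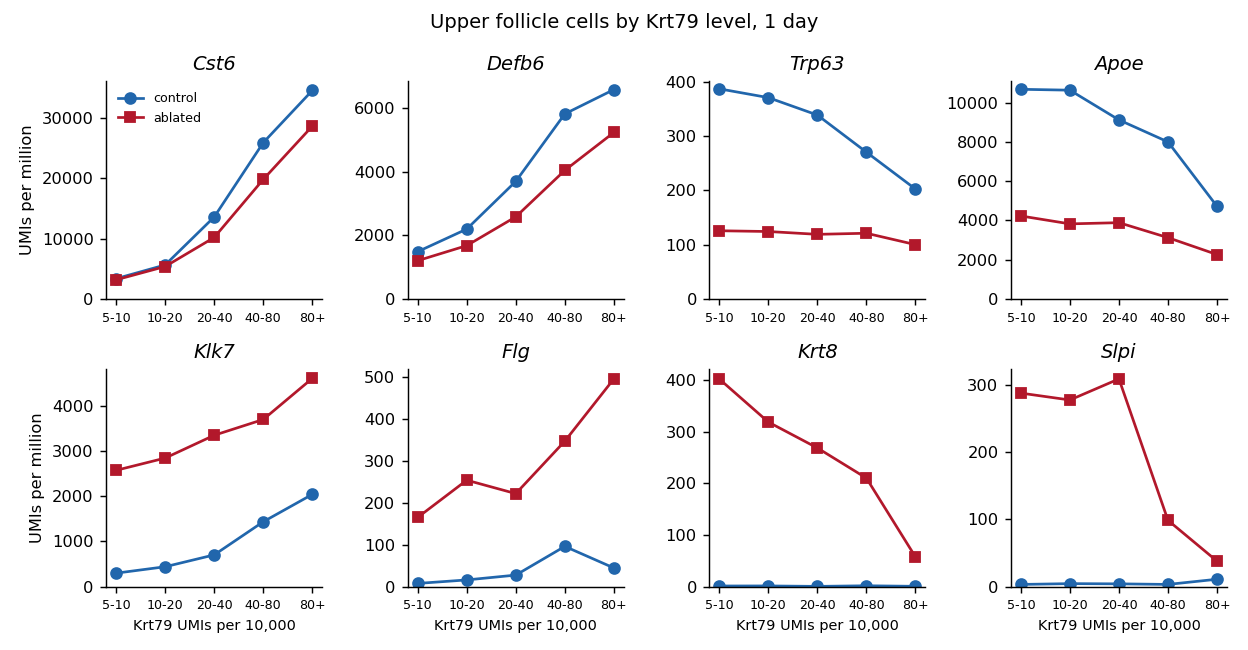
Levels of 8 genes in CPM in upper follicle cells split by Krt79 UMIs per 10000, in the control (blue) and ablated (red) library, with linear axes from 0. Cst6 and Defb6 climb with Krt79 in both libraries, ablated Flg and Klk7 are highest at the top Krt79 level, and ablated Krt8 falls from 403 to 57.6.

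Secreted skin proteases of the kallikrein family were higher in the ablated upper follicle cells. These serine proteases cleave the corneodesmosomes that hold the outermost cells together. Over all measured genes, 3.81% were 2-fold higher and 1.38% lower. Of the 16 genes measured in the list of proteases and inhibitors, 8 were 2-fold higher and none 2-fold lower, with a median log2 ratio of 1.21. All 7 kallikreins with enough UMIs (Klk5, Klk6, Klk7, Klk8, Klk10, Klk11 and Klk13) were among the 8. Klk7 stood at 881 and 3131 CPM in control and ablated cells, a log2 ratio of 1.83 (interval 1.81 to 1.85). By tag set the values were 813, 924 and 1039 and 2672, 3159.7 and 3532, well apart. Klk6 stood at 20.4 and 134 CPM, with tag sets at 18.3, 21.5 and 24.6 and 56.2, 127 and 147. Klk5 (69 and 235), Klk8 (56 and 188), Klk10 (22.9 and 105) and Klk11 (24.5 and 76.9) had log2 ratios of 1.77, 1.75, 2.20 and 1.65 and non-overlapping tag sets. Klk13 was scarce, at 0.287 and 1.73, and its tag sets overlapped. In the other cells 9 genes of the list were 2-fold higher and none lower, with a median of 1.04.

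Klk7 was already a gene of the upper follicle in the control. It stood at 881 CPM there against 245 in the other control cells, and it climbed with Krt79 in both libraries, from 297 to 2041 in the control and from 2574 to 4609.5 in the ablated cells. In the ablated library the other cells reached 2936, close to the 3131 of upper follicle cells. The log2 ratio was thus 1.83 in upper follicle and 3.58 in other cells, and it shrank along Krt79 from 3.11 to 1.18. Thinned to 1500 UMIs, 39.6% of control and 84.2% of ablated upper follicle cells held a Klk7 UMI (55.3% and 91.6% unthinned), against 3.35% and 41.1% of Langerhans-rich barcodes and 8.91% and 50.3% of those with 2 or more Ptprc UMIs. At 40 or more Krt79 UMIs per 10000, Klk6 stood at 39.1 and 256 and Klk10 at 27.3 and 139.6, with log2 ratios of 2.71 and 2.35.

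The inhibitors did not follow the kallikreins as a group. Spink5, the inhibitor of epidermal kallikreins, stood at 689.6 and 1177 CPM (log2 ratio 0.77). Cst6 was lower, as given above, and Cst3, cystatin C, had -0.70, a gene that the Langerhans-rich barcodes held at 7242 and 9072. The cathepsins Ctsl, Ctsb, Ctsd and Ctsc and the legumain gene Lgmn lay between -0.15 and 0.47. Slpi, secretory leukocyte protease inhibitor, was the exception. It stood at 4.83 and 244 CPM, a log2 ratio of 5.66 (interval 5.39 to 5.93). Within tags it read 1.53, 5.26 and 11.6 in control and 92.5, 157 and 480.2 in ablated sets, so 1 ablated tag set held most of it. Slpi was low in the strongest Krt79 cells, at 10.9 and 37.8, and stood at 1.46 and 53.4 in the Langerhans-rich barcodes.

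Genes of the granular layer and the cornified envelope were higher. The cornified envelope is the protein shell that replaces the membrane of dying keratinocytes. Of the 21 genes measured in this list, 13 were 2-fold higher and none 2-fold lower, with a median of 1.15. Over all measured genes, 3.81% were 2-fold higher and 1.38% lower. In the other cells 12 of the 21 were higher and 1 lower, with a median of 1.06. Flg, profilaggrin, stood at 34.9 and 253 CPM, a log2 ratio of 2.86 (interval 2.76 to 2.97). Its tag sets read 12.6, 29.3 and 36.3 and 128, 194 and 271, with no overlap. Flg was highest in the ablated cells strongest in Krt79, at 497 against 44.5 in the control, and stood at 2.92 and 58.6 in the Langerhans-rich barcodes. Tchh, trichohyalin, a matrix protein of the inner root sheath, stood at 10.2 and 61.9. Casp14, the caspase that processes filaggrin, stood at 29.6 and 83.1, and Tgm1, a cross-linking transglutaminase, at 45.2 and 96.5, each with tag sets apart. Tgm1 was past 2-fold by little, and its log2 ratio was 0.41 at 40 or more Krt79 UMIs per 10000. Lce3c stood at 0.942 and 8.40. Some genes of the list did not move in this way. Ivl (involucrin) had a log2 ratio of -0.66 with overlapping tag sets. Evpl (envoplakin) had -0.029, Ppl (periplakin) -0.0065 and Cdsn (corneodesmosin) -0.13.

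Several of these differences lay mostly in 1 tag set or at the low end of Krt79. Lor, loricrin, stood at 115 and 493 CPM with a log2 ratio of 2.10, but its tag sets read 70.8, 129.6 and 181 and 184, 236 and 679, and its log2 ratio was 0.91 at 40 or more Krt79 UMIs per 10000. The late cornified envelope gene Lce1m stood at 22.2 and 139. Its ablated tag sets read 17.6, 26.8 and 352 and its control sets 17.1, 24.6 and 28.1, so 1 ablated set held the difference. Lce1a1 and Lce1c showed the same spread, with ablated tag sets at 5.52, 8.81 and 103 and at 4.40, 4.54 and 69.8. The log2 ratios of Lce1m and Lce1c were 0.048 and 0.038 at 40 or more Krt79 UMIs per 10000, where 7 of the 13 genes remained 2-fold higher with no limit on their UMIs, and 6 with at least 50 UMIs in these cells. Summed over the list, the Langerhans-rich barcodes held 807 and 3966 CPM of these genes, against 7383 and 11769 in upper follicle cells.

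Small proline-rich proteins are cross-linked into the envelope. Sprr2d stood at 2.21 and 108 CPM, Sprr2a3 at 3.07 and 105, Sprr2e at 0.697 and 27.4 and Sprr2f at 4.26 and 81.1, with log2 ratios of 5.61, 5.10, 5.30 and 4.25. The 4 genes are closely related copies, and how the counting split reads among them is uncertain. The ablated tag sets of Sprr2d read 62.8, 124 and 144, and the Langerhans-rich barcodes held 1.46 and 47.6. Sprr1a, already abundant in the control, stood at 5717 and 8893, a log2 ratio of 0.64 that did not reach 2-fold and was 0.22 at 40 or more Krt79 UMIs per 10000. In the other cells Sprr1a stood at 2280.2 and 8585.

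Enzymes that make the lipids of the skin barrier were higher in part. Of 11 measured, 5 were 2-fold higher and 1 was 2-fold lower, beside 3.81% and 1.38% of all measured genes, with a median of 0.88. The 5 were Alox12b (22 and 99.9 CPM), Aloxe3 (24.5 and 59.8), Elovl1 (125 and 262), Cyp4f39 (29.6 and 61.5) and Pnpla1 (5.94 and 12.1), all with tag sets apart. The list summed to 665 and 1249 in upper follicle cells and to 200.3 and 527 in the Langerhans-rich barcodes. Alox12b and Aloxe3 act in sequence on the linoleate of ceramides. Alox12, another lipoxygenase, was the 1 lower, at 4.75 and 0.774, with a log2 ratio of -2.62 (interval -3.36 to -1.94). At 40 or more Krt79 UMIs per 10000 Alox12b was the only 1 of the 5 still past 2-fold, with 1.39, and Alox12 had -0.93 (interval -2.78 to 0.65). In the other cells 5 genes of the list were 2-fold higher and 1 lower, with a median of 0.97.

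Keratins of the simple and of the wounded epithelium appeared at different strengths. Krt8 and Krt18 pair in simple epithelia and are scarce in adult interfollicular keratinocytes. Krt8 had 25 UMIs in control and 8055 in ablated upper follicle cells, 1.02 and 297 CPM and a log2 ratio of 8.18 (interval 7.62 to 8.81). Krt18 stood at 1.64 and 36.5. The Krt8 tag sets read 0.686, 0.825 and 1.53 in control and 205, 214 and 228 in ablated sets, far apart. All of the ablated sets lay under the 297 of all ablated upper follicle cells. The level fell along Krt79 in the ablated cells, from 403 at 5 to 10 to 57.6 at 80 or more per 10000. The other ablated cells held 604 CPM and the Langerhans-rich ablated barcodes 268. Thinned, 25.3% of ablated upper follicle cells held a Krt8 UMI (40.3% unthinned), against 15.8% of Langerhans-rich and 36.1% of other ablated cells. Of the ablated barcodes with 2 or more Ptprc UMIs, 22.2% (interval 16.4 to 28.8) held one, an interval that covers the share in upper follicle cells.

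Of the 4 stress keratins, 3 were 2-fold higher, beside 3.81% of all measured genes, and 3 were so in the other cells. Krt6a, a keratin of the follicle companion layer and of wounded skin, stood at 415 and 953 CPM, with tag sets at 358, 441 and 492 and 743, 1068 and 1403. Its log2 ratio was 1.30 at 40 or more Krt79 UMIs per 10000, and it stood at 103 and 238 in the Langerhans-rich barcodes. Krt16 stood at 609.9 and 1831, but its log2 ratio went from 1.59 to 0.86 at that limit. Krt6b stood at 4.55 and 118. The ablated Krt6b tag sets spread widely, at 14.3, 161 and 204, against 1.24, 1.37 and 2.64 in the control.

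Secreted mediators of inflammation were higher for 8 of 23 genes measured and lower for 1, with a median of 0.37. Of all measured genes, 3.81% were 2-fold higher and 1.38% lower. In the other cells 8 of the 23 were higher and none lower, with a median of 0.59. Tslp, the epithelial cytokine of atopic skin, stood at 17.1 and 113 CPM with a log2 ratio of 2.72 (interval 2.57 to 2.87). The tag sets of this gene read 10.7, 12.6 and 29.7 and 72, 96.2 and 119, and the Langerhans-rich barcodes held 8.75 and 54.4. In the other cells the Tslp ratio was 4.04. Members of the interleukin-1 family were Il18 at 5.08 and 28.98, Il1f9 (interleukin-36 gamma) at 10.98 and 49.2, Il1f6 (interleukin-36 alpha) at 1.72 and 8.96, Il1a at 2.79 and 11.8 and the receptor antagonist Il1rn at 79.6 and 232. Tnf and Cxcl2 were also past 2-fold, at 2.13 and 7.59 and 4.34 and 12.2, and stood at 81.2 and 105 and 309.7 and 608 in the Langerhans-rich barcodes. The level of Il18 in those barcodes was 70.5 and 131. By tag set Il18 read 3.92, 4.59 and 6.17 in control and 11.4, 13.8 and 45.8 in ablated sets, apart but far higher in 1 ablated set. Of the 8 higher genes, 7 were past 2-fold at 40 or more Krt79 UMIs per 10000, and Il1a, at 0.85, was not.

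The chemokines Ccl2, Ccl20 and Cxcl10 pointed the other way on weak ground. Their log2 ratios were -0.86, -0.98 and -1.03, and Cxcl10 was the 1 lower gene of the list. The Ccl20 tag sets read 13, 17.4 and 61.5 in control and 6.24, 17.2 and 17.8 in ablated sets, and those of Ccl2 88.8, 136 and 257 and 30.98, 122 and 192. Those of Cxcl10 read 10.3, 12.8 and 48.7 in control and 1.20, 17.6 and 18.5 in ablated sets. The sets overlapped for all 3 genes. For Ccl20 and Cxcl10, 1 control set stood far above the others, and the middle Cxcl10 set was higher in the ablated than in the control library. In cells with 1 dominant tag the Cxcl10 ratio was -0.79.

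Antimicrobial peptides other than Defb6 were mostly scarce. Of 8 measured, 4 were 2-fold higher and none lower, beside 3.81% and 1.38% of all measured genes, with a median of 1.47. Besides Slpi these were S100a8, a subunit of calprotectin, at 1.76 and 10.1 CPM, Defb14 at 0.942 and 3.94 and Wfdc12 at 0.0819 and 8.48, the last from 2 control UMIs (log2 ratio 6.69 (interval 4.82 to 9.75)). Defb1 had a log2 ratio of -0.47, next to the -0.64 of Defb6. In the other cells 5 of the 8 were 2-fold higher and none lower, with a median of 2.21. Slurp1, a secreted Ly6 protein of keratinocytes, stood at 39.7 and 322, with tag sets at 25.9, 48 and 54.7 and 196, 298 and 397. Ly6c1, a surface protein of the Ly6 family, stood at 3.40 and 135, against 10.2 and 96.8 in the Langerhans-rich barcodes.

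Of 11 genes measured in the EGF receptor pathway, 4 were 2-fold higher, all of them ligands, and none was lower, with a median of 0.63. Over all measured genes, 3.81% were 2-fold higher and 1.38% lower. In the other cells 4 of the 11 were also 2-fold higher and none lower, with a median of 0.63. Hbegf stood at 218 and 674 CPM, with tag sets at 169, 247 and 278 and 545, 652 and 821. Epgn, epigen, stood at 56.9 and 244, Areg, amphiregulin, at 76.3 and 238, and Ereg, epiregulin, at 39.9 and 93.1, all with tag sets apart. The Langerhans-rich barcodes held 654 and 1143 CPM of the whole list, against 981 and 2060 in upper follicle cells. The ligands Btc and Tgfa had log2 ratios of 0.63 and 0.21. The receptors Egfr, Erbb2 and Erbb3 had -0.072, 0.12 and 0.087. The feedback inhibitor Errfi1 had 0.96, with tag sets apart. At 40 or more Krt79 UMIs per 10000 Epgn was past 2-fold, at 2.00, while Hbegf had 0.997, just under it, Areg 0.76 and Ereg 0.25.

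Genes of the basal layer mostly stayed within 2-fold. Over all measured genes, 3.81% were 2-fold higher and 1.38% lower. Of 13 genes for basal keratins and adhesion, none was 2-fold higher and 1 was 2-fold lower, with a median of -0.17, against -0.51 in the other cells. The 1 was Col17a1, collagen XVII of the hemidesmosome, at 413 and 184 CPM and a log2 ratio of -1.17 (interval -1.22 to -1.12). By tag set the values were 349.7, 389 and 414 and 152, 168 and 213, apart. As a mean over cells its log2 ratio was -0.91, and the Langerhans-rich barcodes held 466 and 127. Dst (the hemidesmosomal plaque protein dystonin) had -0.92, Krt5 -0.82, Lamb3 (a laminin-332 chain) -0.82 and Itgb4 (integrin beta 4) -0.74, all with tag sets apart. The whole list summed to 6076 and 4861 CPM in upper follicle cells and to 6519 and 2827 in the Langerhans-rich barcodes. Krt14 had -0.12 with overlapping sets. Krt15, a keratin of the bulge and the basal layer, stood at 1816 and 900.4. Its log2 ratio was -1.01 over all upper follicle cells, at the edge of 2-fold, and -0.93 as a mean over cells. Within the strata of Krt79 used above, the Krt15 ratio was -0.94 at 5 to 10 and -1.09 at 10 to 20. It was -1.23 at 20 to 40, -1.22 at 40 to 80 and -1.74 at 80 or more.

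Among 12 measured genes linked to p63, 2 were 2-fold lower and none higher, beside 1.38% and 3.81% of all measured genes. The median was 0.033. The 2 lower genes were Trp63 itself and Igfbp3, which binds insulin-like growth factors and stood at 235 and 93.8 CPM. Within tags it read 112, 216 and 259.8 and 60.2, 77.1 and 86.6. Jag2, a Notch ligand, had a log2 ratio of -0.87. Perp, Fgfr2 and Fgfr3 lay between -0.027 and 0.24. Cdkn1a, the cell cycle inhibitor p21, had 0.51. None of 21 cell cycle genes, 8 AP-1 genes and 11 stress and dissociation genes measured was past 2-fold in either direction, with medians of 0.22, 0.42 and 0.37. In cells at 40 or more Krt79 UMIs per 10000 the cell cycle median was 0.64 and 4 of the genes were past 2-fold, on 1 to 31 UMIs a library. Of these, Cdk1, the mitotic kinase, had 1.49 (interval 0.56 to 2.49) and Cenpf, a kinetochore protein, 1.499 (interval 0.49 to 2.58). Aurkb had 1.29 (interval -0.44 to 3.22) and Bub1 1.44 (interval -2.82 to 7.33). The share of all genes past 2-fold in these cells with no limit on UMIs was not counted.

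The other lower genes named had varied roles. Apoe, apolipoprotein E, stood at 8966 and 3739 CPM, a log2 ratio of -1.26 (interval -1.27 to -1.25), with tag sets at 8467, 8849 and 10534 and 3505, 4524 and 5193, and with 3802 and 1584 in the Langerhans-rich barcodes. Gstm1, a glutathione transferase, stood at 164 and 52.6 and Cyp27a1, a sterol 27-hydroxylase, at 24.95 and 8.37. Adh7, an alcohol dehydrogenase that acts on retinol, stood at 35.1 and 9.58. Hpgds, a prostaglandin D synthase, stood at 46.1 and 9.36, with 443 and 405 in the Langerhans-rich barcodes. Serpinb12, an intracellular serpin, stood at 21.9 and 2.88 and had a log2 ratio of -2.93 (interval -3.29 to -2.59). Mt4, the metallothionein of stratified epithelium, stood at 126 and 26.8. It was the 1 lower gene among 11 of spinous differentiation, beside 1.38% of all measured genes. All of these had non-overlapping tag sets and stayed past 2-fold at 40 or more Krt79 UMIs per 10000.

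Some lower genes were genes of the upper follicle in the control. Ear2, an eosinophil-associated ribonuclease, stood at 21.8 and 4.61 CPM in upper follicle cells and at 0.453 and 0.343 in the other cells. Its tag sets read 20.8, 25.4 and 28.1 and 6.12, 7.34 and 8.88, and at 40 or more Krt79 UMIs per 10000 it stood at 35.2 and 5.55. Gstm1 had 39.3 and 18.3 in the other cells, Cyp27a1 6.98 and 3.33 and Igfbp4, an insulin-like growth factor binding protein, 30.2 and 19.6. Igfbp4 stood at 71.1 and 27.8 in upper follicle cells.

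Beside the other cells of the same libraries, some genes had ratios of another size. They were chosen after their values were seen, and with 1 library per group the difference between the cell sets could not be tested. Rptn, repetin of the envelope, had a log2 ratio of 1.14 (interval 0.92 to 1.36) in upper follicle and 4.89 (4.57 to 5.23) in other cells. In upper follicle cells it was 0.43 with 1 dominant tag and 0.62 at 40 or more Krt79 UMIs per 10000, under 2-fold in both. Its control level was 10.1 CPM in upper follicle and 0.564 in other cells. Elf3, an epithelial ETS factor, had 2.22 and 4.94, and Slurp1 3.02 and 5.31. Klk7, Sprr1a and the sodium-coupled transporter Slc5a8 (46.1 and 83.7 CPM) followed the same order, each with a higher control level in upper follicle than in other cells. In the opposite order stood Sprr2d, at 5.61 and 4.33, Lor, at 2.10 and 1.03, and Lce1m, at 2.65 and 0.53, whose tag sets are given above. At 40 or more Krt79 UMIs per 10000 the upper follicle ratio of Sprr2d was 5.08, still above that of the other cells. In the same cells the ratios of Lor (0.91) and Lce1m (0.048) were below those of the other cells, so that their order turned. The order of Sprr2d held for levels and not for shares of cells. Thinned, 0.370% of control and 8.51% of ablated upper follicle cells held a Sprr2d UMI. In the other cells the shares were 0.415% and 9.996%, so the share did not rise by more in upper follicle cells.

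**Figure D4:**
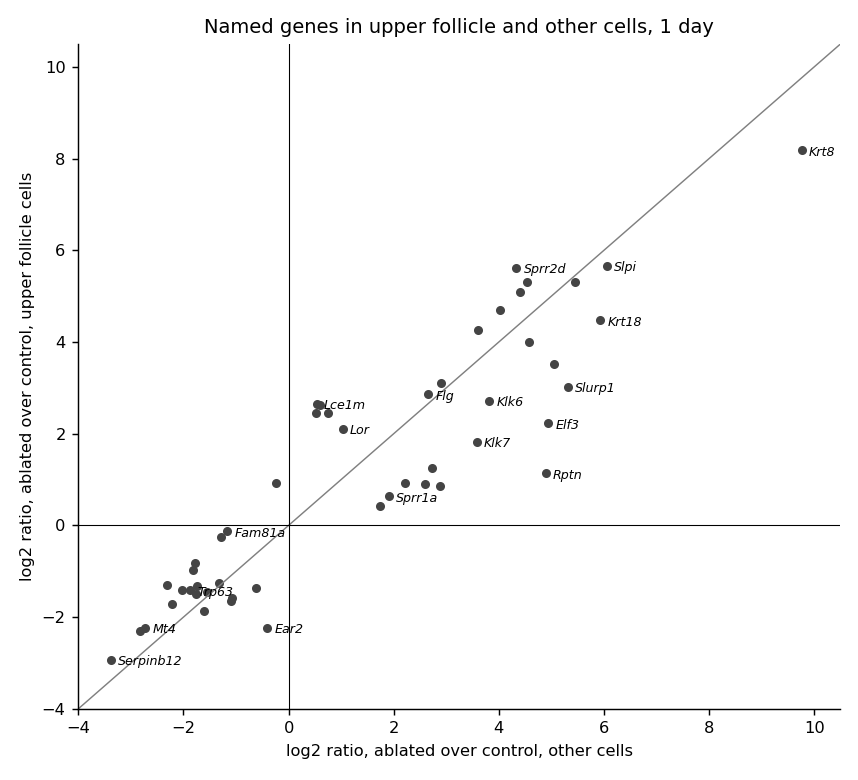
Log2 ratios, ablated over control, of the named genes in other cells (x axis) and in upper follicle cells (y axis), with a diagonal of equal values. Genes such as Rptn, Elf3 and Klk7 lie below the diagonal, with smaller ratios in upper follicle cells, and Lce1m and Sprr2d lie above it, Lce1m only with the cells under 40 Krt79 UMIs per 10000 included.

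For Trp63, Col17a1, Apoe, Klk7, Flg, Krt6a and Hbegf the 3 ablated sets lay on 1 side of the 3 control sets, as the plot of tag sets shows, beside 12.3% and 13% of all measured genes. Aldh1a3, which makes retinoic acid, was the 1 gene of 8 for retinoid handling past 2-fold, beside 3.81% of all measured genes 2-fold higher. It stood at 1.76 and 9.03 CPM, with tag sets at 1.14, 1.39 and 3.51 and 4.04, 10.3 and 15.6. Among 8 measured markers of the neighbouring sebaceous gland, 2 were 2-fold higher and 1 was lower, beside 3.81% and 1.38% of all measured genes. The median was 0.070. The higher genes were Elovl3, a fatty acid elongase, at 0.901 and 2.14 CPM, and Soat1, which esterifies cholesterol, at 4.75 and 10.4, both with overlapping tag sets. At 10 or more Krt79 UMIs per 10000 their log2 ratios were 0.68 and 0.73, under 2-fold, and at 40 or more they were 2.44 and 1.29, that of Elovl3 on 1 and 4 UMIs. The median of the list was 0.79 there, with 3 genes 2-fold higher and none lower. Plin2, a lipid droplet protein, stood at 118 and 57.9 and was 2-fold lower, but at 40 or more Krt79 UMIs per 10000 it stood at 33.5 and 52.5 and the direction turned.

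**Figure D5:**
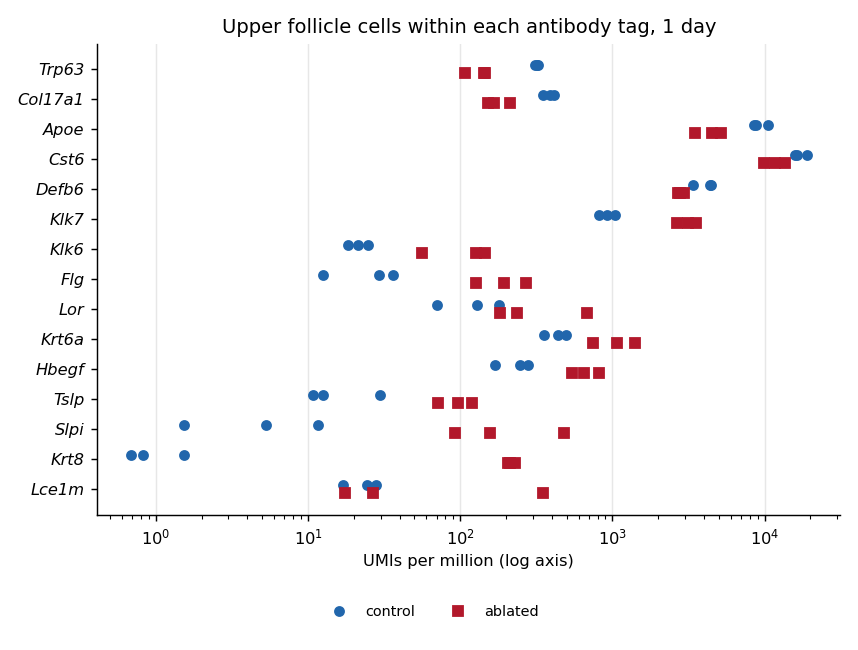
Levels of 15 genes in CPM on a log axis in upper follicle cells within each antibody tag, 3 sets of the control (blue circles) and 3 of the ablated library (red squares). The sets of the libraries stay apart for all genes shown except Lce1m, where 1 ablated set lies at 352 and the others within the control range.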

How the data were processed

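Droplet libraries of mouse epidermis were made by the authors with the 10x Genomics 3′ kit (version 3.1) at 1 day, 1 library per group, per the labels' protocols. The counts are raw UMIs of each gene in each barcode, deposited as the authors made them with Cell Ranger 5.0.1 on mm10, per the submitters' processing notes, which also name Seurat. Counts were used as deposited, and 32158 of 32285 gene identifiers were found in GENCODE M21.

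Members, gene lists and their order were chosen with earlier results of these data known. Cells were selected by the rule given in the report, no doublet caller was run, and cells with 1 dominant antibody tag (at least 2-fold over the next, after dividing by each tag's median, a limit set after seeing the counts) served as an alternative. Excluded for a Ptprc UMI were 87 control and 134 ablated cells that met the Krt79 limits, and for Scd1 146 and 162. UMIs were summed per library. A gene was measured with at least 50 UMIs over both libraries, and called 2-fold on its point ratio. Intervals are exact (conditional binomial, Clopper-Pearson, 95%) and cover counting error only. They were run on simulated counts that held counting error only. That run checks the calculation, and it cannot show how the intervals cover variation between cells or libraries. For shares of cells with a UMI, each cell was thinned to 1500 UMIs. Named genes were the 15 highest and 15 lowest by the interval bound nearest 0 among genes of at least 20 CPM in the higher library, without mitochondrial, ribosomal protein, Gm-number and Rik genes, plus the members of 27 gene lists. A further 12 genes per direction, whose ratios differed most from the other cells, were chosen after their values were seen. Alternatives were TMM scaling (edgeR 4.0.16), totals without mitochondrial and ribosomal protein genes, the mean CPM per cell, other limits on UMIs, genes and markers, single-tag cells and, added after seeing the data, 40 or more Krt79 UMIs per 10000 and the Langerhans-rich barcodes. Python 3.11.15, numpy 2.4.6, scipy 1.17.1 and pandas 2.3.3 were used.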

Additional observations from a re-analysis of the deposited data

Results flagged for a closer look

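Signal was present in data outside the gene measurements. Both 1-day matrices held 4 antibody tags, and 3 of them carried signal, with the lowest of their medians at 87 UMIs per barcode (control) and 71 (ablated), while the median of the fourth was 0. The labels do not say what the tags mark. Upper follicle cells made up 18.2%, 12.2% and 13.9% of the control and 19.5%, 17.1% and 14.1% of the ablated barcodes with 1 dominant tag, so the ranges of the libraries overlapped.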

How the results depend on the processing

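The main dependence was on the Krt79 level of the cells. At 40 or more Krt79 UMIs per 10000, a limit added after seeing the data, 201 genes were 2-fold higher and 94 lower, the Trp63 log2 ratio was -1.06, the share of upper follicle cells differed by -1.17 percentage points in place of 4.8, 6 cornified envelope genes, 1 barrier lipid enzyme and 1 EGF receptor pathway gene were 2-fold higher, and Plin2 turned to 0.65. Fewer genes were measured in these fewer cells (8899 in place of 11428). The protease and inflammatory lists had 7 and 6 genes 2-fold higher, and with no limit on UMIs 8 and 7 of their 8 were still so. At 10 or more Krt79 UMIs per 10000 the Trp63 ratio was -1.35, the share difference 2.8 points and the barrier lipid count 2. In cells with 1 dominant tag they were -1.31 for Trp63 and 2.23 points for the share. Trp63 was -1.49 at 3000 or more UMIs, -1.48 with totals that leave out mitochondrial and ribosomal protein genes, where the barrier lipid count was 3, and -1.30 as a mean over cells. The Trp63 shifts exceed the counting interval of its main value, and the cause of all these shifts was not tested. Among genes with at least 1 UMI in each library, 1287 were higher and 851 lower. With at least 200 UMIs, 272 were higher and 81 lower, fewer genes being tested (9080). The remaining settings left these counts within 1.5 times. Of 270 single genes under 8 settings, 1516 of 2160 values stayed inside the counting interval of the main value. The sign differed for 110 values of 54 genes, 33 of them at 40 or more Krt79 UMIs per 10000, and Plin2 was the 1 of these genes past 2-fold. Of the 84 genes past 2-fold, 56 were so under every setting and 21 were not at 40 or more Krt79 UMIs per 10000. The median log2 ratio of all genes ranged from -0.083 to 0.013 over the settings. No paired analysis was possible because each group was 1 library. Depth limits scarce genes, for which the intervals are wide.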
